A study of Mus musculus with 12 samples.

Results

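The response of the liver to dexamethasone was compared between ovariectomized and intact female mice, gene by gene, as the dexamethasone-minus-vehicle change in ovariectomized females minus the same change in intact females. All 12 libraries of the 12 in the series enter this comparison. They came from livers of wild-type C57BL/6 females in 4 groups of 3: intact females given PBS as vehicle, intact females given dexamethasone, ovariectomized females given PBS, and ovariectomized females given dexamethasone. Dexamethasone, a synthetic glucocorticoid, was given at 1 mg/kg and RNA was taken at 6 h. Ovariectomized females lack the ovary, the main source of oestradiol and progesterone. The sources used here state neither age, nor the interval since surgery, nor any sham operation of the intact females. They also leave unstated whether each replicate is its own animal, so the spread behind every p-value is that between these libraries, which may be technical. Because the RNA came from whole liver, fewer cells of a type and less RNA per cell cannot be told apart. The labelled tissue carried its defining transcripts in every library: Alb, which encodes albumin, lay between 21.59 and 22.03 on the deposited log2 scale, Ttr between 17.42 and 18.18 and Hnf4a between 13.62 and 14.54.

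Glucocorticoids enter cells and bind the glucocorticoid receptor, which moves to the nucleus, raises genes of gluconeogenesis and amino acid breakdown and lowers many inflammatory genes. Oestradiol acts in hepatocytes mainly through oestrogen receptor alpha, which also bears on lipid handling. Immediate early genes are transcribed within minutes of a stimulus such as glucagon, adrenaline, growth factors, feeding or stress, and their RNAs are short-lived. A difference between responses can arise from any of the 4 groups, so levels in all of them are described below for many genes. For other genes only some groups, the responses or the difference are given, and the group behind the difference may not be shown.

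Of 12965 genes tested, 3234 (24.9%) had a difference between responses at an adjusted p under 0.05 in limma. The difference was positive, meaning a more positive or less negative response in ovariectomized females, for 1983 genes (15.3%) and negative for 1251 (9.65%). It reached 1 on the log2 scale for 112 genes (0.864%) upward and for 53 (0.409%) downward. The lower count fell to 741 without intact dexamethasone replicate 1 and to 822 without intact vehicle replicate 1. The median difference over all genes was 0.0104. With the libraries recentred to the same median, 1744 differences were positive and 1519 negative. Quantile normalization gave 1419 positive and 1308 negative ones, so the size of the excess of positive differences depended on the scaling. Library medians lay between 8.82 and 8.86, and intact dexamethasone replicate 3 departed most from its group mean (root mean square 0.181, against 0.0922 to 0.152 in the others); without it 3485 genes passed. In the same model, 6323 genes (48.8%) passed for dexamethasone in intact females and 5283 (40.7%) in ovariectomized females. These contrasts use the same libraries as the difference and are not separate evidence for it.

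The most frequent form was a response that passed in intact females alone. This held for 1545 of the 3234 genes (47.8%; 904 with a positive difference and 641 with a negative one), and for 1023 genes without intact dexamethasone replicate 1. A response that passed in ovariectomized females alone was found for 892 genes (27.6%; 551 without ovariectomized vehicle replicate 1 and 590 without ovariectomized dexamethasone replicate 3). Opposite responses that both passed were found for 369 genes (11.4%), of which 269 fell in intact and rose in ovariectomized females and 100 did the reverse. Without ovariectomized vehicle replicate 1 there were 224 such genes, and without ovariectomized dexamethasone replicate 3 there were 242. For 219 genes (6.77%) both responses went the same way and were larger in intact females, and for 120 (3.71%) they were larger in ovariectomized females. The 339 genes of these same-direction forms were 189 without ovariectomized vehicle replicate 1, 191 without intact dexamethasone replicate 1 and 195 without ovariectomized dexamethasone replicate 3. In the remaining 89 (2.75%) neither response passed by itself, and these were 48 without intact dexamethasone replicate 1, 56 without ovariectomized vehicle replicate 3 and 59 without intact vehicle replicate 1.

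**Figure D1:**
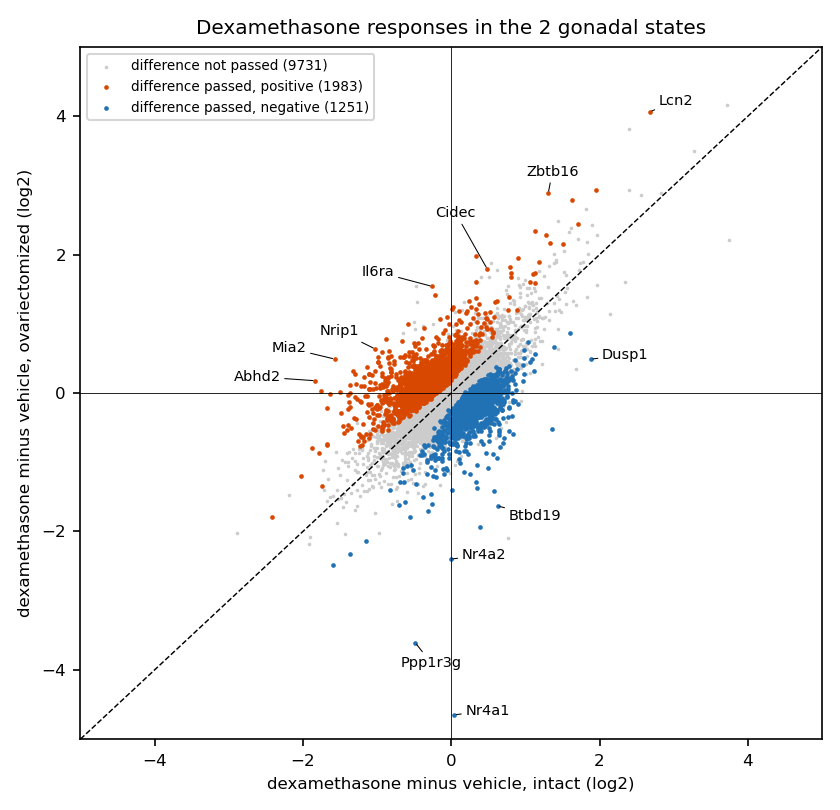
Dexamethasone response in intact females (x axis, log2) against that in ovariectomized females (y axis, log2), 1 point per tested gene, with genes whose difference passed in orange (positive) or blue (negative) and a dashed line where the responses are equal. Nr4a1 lies near 0 on the x axis (0.04) and at -4.65 on the y axis, and Mia2 lies at -1.57 on the x axis and 0.49 on the y axis.

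Most differences could not be assigned to a single group. A group was said to stand apart when its 3 libraries all lay above or all below the other 9 and the other 3 group means lay close together, with a range of at most 0.5 of the gap to the nearest of them. By this description intact vehicle stood apart for 426 genes (223 above and 203 below the rest), ovariectomized vehicle for 132 (74 above and 58 below), ovariectomized dexamethasone for 85 (50 and 35) and intact dexamethasone for 84 (40 and 44). No group stood apart for 2507 genes (77.5%). Among the 165 genes with a difference of at least 1, ovariectomized vehicle stood above the rest for 17 and intact vehicle for 14. When 1 library was left out, the counts ran from 285 to 575 for intact vehicle, 90 to 183 for ovariectomized vehicle, 47 to 135 for ovariectomized dexamethasone and 45 to 127 for intact dexamethasone. The extremes of the last were without ovariectomized dexamethasone replicate 3 and without intact dexamethasone replicate 2, and those of ovariectomized dexamethasone were without ovariectomized vehicle replicate 1 and without intact dexamethasone replicate 3. With the dependence on transcript length and GC content removed, intact vehicle stood apart for 245 genes. In direct comparison, 3618 genes (27.9%) passed between ovariectomized and intact vehicle livers (2215 without intact vehicle replicate 1) and 1662 (12.8%) between ovariectomized and intact dexamethasone livers. The latter count rested on single libraries, with 207 genes without ovariectomized dexamethasone replicate 3, 922 without its replicate 1, 993 without its replicate 2 and 312 without intact dexamethasone replicate 1.

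**Figure D2:**
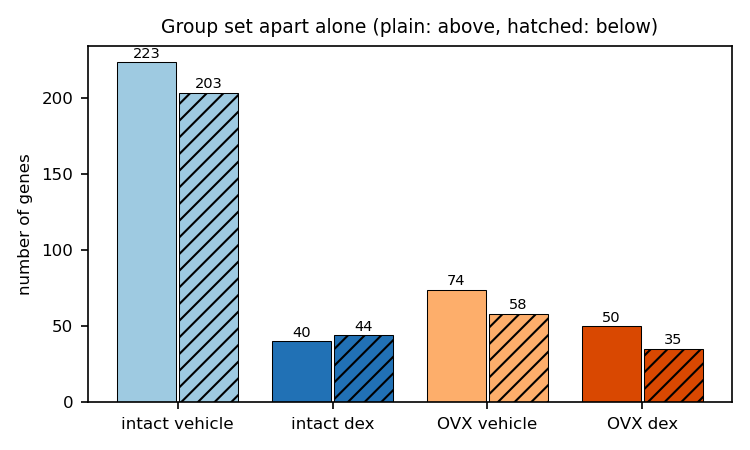
Number of genes with a difference between responses (y axis) for which each group (x axis) stood apart, above (plain bars) or below (hatched bars) the other 3. Intact vehicle has 223 genes above and 203 below, and ovariectomized vehicle has 74 above and 58 below.

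Immediate early genes that were high in the ovariectomized vehicle livers had some of the largest differences. Nr4a1 (Entrez 15370), an orphan nuclear receptor induced by cAMP and growth signals, had levels of 11.26, 10.30 and 11.87 in the 3 ovariectomized vehicle libraries. They were 6.36, 6.63 and 6.54 in intact vehicle, 6.64, 6.47 and 6.53 in intact dexamethasone and 6.42, 6.46 and 6.60 in ovariectomized dexamethasone libraries. The ovariectomized vehicle libraries thus lay far above the other 9, which overlapped one another. Dexamethasone changed it 25.1-fold downward in ovariectomized females (-4.65 ± 0.28, adjusted p = 1.16e-06) and by 0.04 ± 0.28 in intact females (adjusted p = 0.913). The difference of Nr4a1 was -4.69 ± 0.39, adjusted p = 0.000148. Its relative Nr4a2 (Entrez 18227) had 7.09, 6 and 6.83 in ovariectomized vehicle against 4.37, 4.25 and 4.30 in intact vehicle, and 4.08, 4.18 and 4.45 after dexamethasone in ovariectomized females. The difference was -2.39 ± 0.31, adjusted p = 0.000644, and the intact dexamethasone libraries (4.34, 4.21 and 4.34) lay at the intact vehicle level.

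The 250 bases upstream of the start of 4 genes are shown because cAMP-responsive promoters bind CREB at TGACG or its reverse complement CGTCA, and the genes with the largest negative differences include classical CREB targets. Only named genes with a match in these 250 bases could be shown, so a match in each of the 4 was fixed in advance. Sequences are from RefSeq on GRCm38.p6, read 5′ to 3′ on the strand of the gene, with each match to these letters in capitals. The deposited values were made on another build, mm9, so these coordinates apply to the promoter table only.
Nr4a1 (chr15:101266596-101266845, plus strand): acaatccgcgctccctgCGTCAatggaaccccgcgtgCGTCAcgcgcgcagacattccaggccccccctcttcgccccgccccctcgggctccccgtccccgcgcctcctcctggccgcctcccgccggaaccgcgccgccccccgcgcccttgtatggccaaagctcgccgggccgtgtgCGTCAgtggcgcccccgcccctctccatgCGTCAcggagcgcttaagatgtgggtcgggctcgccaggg
Nr4a2 (chr2:57124004-57124253, minus strand): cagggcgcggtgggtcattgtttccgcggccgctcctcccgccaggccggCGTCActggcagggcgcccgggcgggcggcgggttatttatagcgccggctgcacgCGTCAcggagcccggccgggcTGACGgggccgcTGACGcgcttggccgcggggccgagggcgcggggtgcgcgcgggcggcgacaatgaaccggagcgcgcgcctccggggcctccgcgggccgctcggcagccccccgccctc
Dusp1 (chr17:26508473-26508722, minus strand): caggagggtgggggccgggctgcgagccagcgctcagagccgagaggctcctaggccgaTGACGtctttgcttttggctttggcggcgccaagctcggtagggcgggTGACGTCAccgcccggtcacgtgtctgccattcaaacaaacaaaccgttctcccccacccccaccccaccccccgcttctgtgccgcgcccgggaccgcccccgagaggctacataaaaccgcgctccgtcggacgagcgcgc
Ppp1r3g (chr13:35967656-35967905, plus strand): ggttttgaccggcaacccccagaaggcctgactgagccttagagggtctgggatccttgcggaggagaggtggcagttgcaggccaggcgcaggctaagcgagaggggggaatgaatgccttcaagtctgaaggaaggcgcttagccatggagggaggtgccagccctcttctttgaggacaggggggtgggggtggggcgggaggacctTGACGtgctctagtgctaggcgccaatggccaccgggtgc
The window holds 4 matches in Nr4a1, 4 in Nr4a2, 3 in Dusp1 and 1 in Ppp1r3g. In Dusp1 the stretch TGACGTCA holds TGACG and CGTCA overlapping, and each was counted. TGACG on either strand occurred in 22 of 53 windows (250 bases before and 50 after the start) of genes lower by at least 1 (41.5%). These windows came from 40 matched genes of 53, some with several windows. Over all genes tested it occurred in 3947 (30%) of 13163 windows (10328 of 12965 genes matched). The full palindrome TGACGTCA, which contains TGACG, occurred in 4 of the 53 windows (7.55%) against 2.86% of all. TGACG occurred in 30.4% of the 1276 windows of all genes with a negative difference, in 34.1% of those with a positive one and in 33.3% of those higher by at least 1. Among genes for which ovariectomized vehicle stood above the rest the share with TGACG was 31.2%. These matches describe letters in the windows and not binding.

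Of 16 measured immediate early and AP-1 genes, 10 had a lower response in ovariectomized females (9.65% of all genes did) and 0 a higher one (15.3% of all genes did). The median difference was -1.06, against 0.0104 over all genes, with 8 to 13 lower over the alternatives. Here and below, ranges of list counts over the alternatives leave out the minimum absolute log2 of 1. In ovariectomized vehicle livers 11 of the 16 were higher than in intact vehicle livers (12.4% of all genes were), and between the dexamethasone groups 0 passed limma's test (3 were lower in ovariectomized females at an unadjusted p under 0.05). Dexamethasone raised 6 of the 16 in intact females (22.8% of all genes) and lowered 0, also at an unadjusted p under 0.05 (25.9% of all genes fell). In ovariectomized females it raised 1 (21.3% of all genes) and lowered 10 (19.4% of all genes). Fosb, a partner of Jun in the AP-1 factor, was at 4.66, 4.40 and 5.07 in ovariectomized vehicle and 3.79, 3.67 and 3.53 in intact vehicle libraries. It rose with dexamethasone in intact females (0.57 ± 0.17, adjusted p = 0.018) and fell in ovariectomized females (-0.89 ± 0.17, adjusted p = 0.00205), with a difference of -1.45 ± 0.25, adjusted p = 0.00218. Atf3, a stress-induced repressor of the ATF family, was at 7.93, 7.40 and 8.08 in ovariectomized vehicle and 6.01, 6.05 and 6.04 in intact vehicle libraries. Intact dexamethasone replicate 3 reached 7.49 and overlapped them, while the others were at 6.34 and 6. The difference of Atf3 was -1.98 ± 0.44, adjusted p = 0.00841. Ier3, an immediate early regulator of cell survival, had 7.13, 7.05 and 7.39 in ovariectomized vehicle and at most 6.49 elsewhere, with a difference of -1.72 ± 0.24, adjusted p = 0.000925. The difference of Fos itself was -1.58 ± 0.45, adjusted p = 0.0251, with ovariectomized vehicle levels of 6.19, 5.86 and 7.46 that spread more than those of intact vehicle (5.09, 5.35 and 5.14). Its call was lost (adjusted p = 0.0502 to 0.0565 with any 1 of intact vehicle replicates 1 and 3, intact dexamethasone replicate 1 or ovariectomized dexamethasone replicates 2 and 3 left out).

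**Figure D3:**
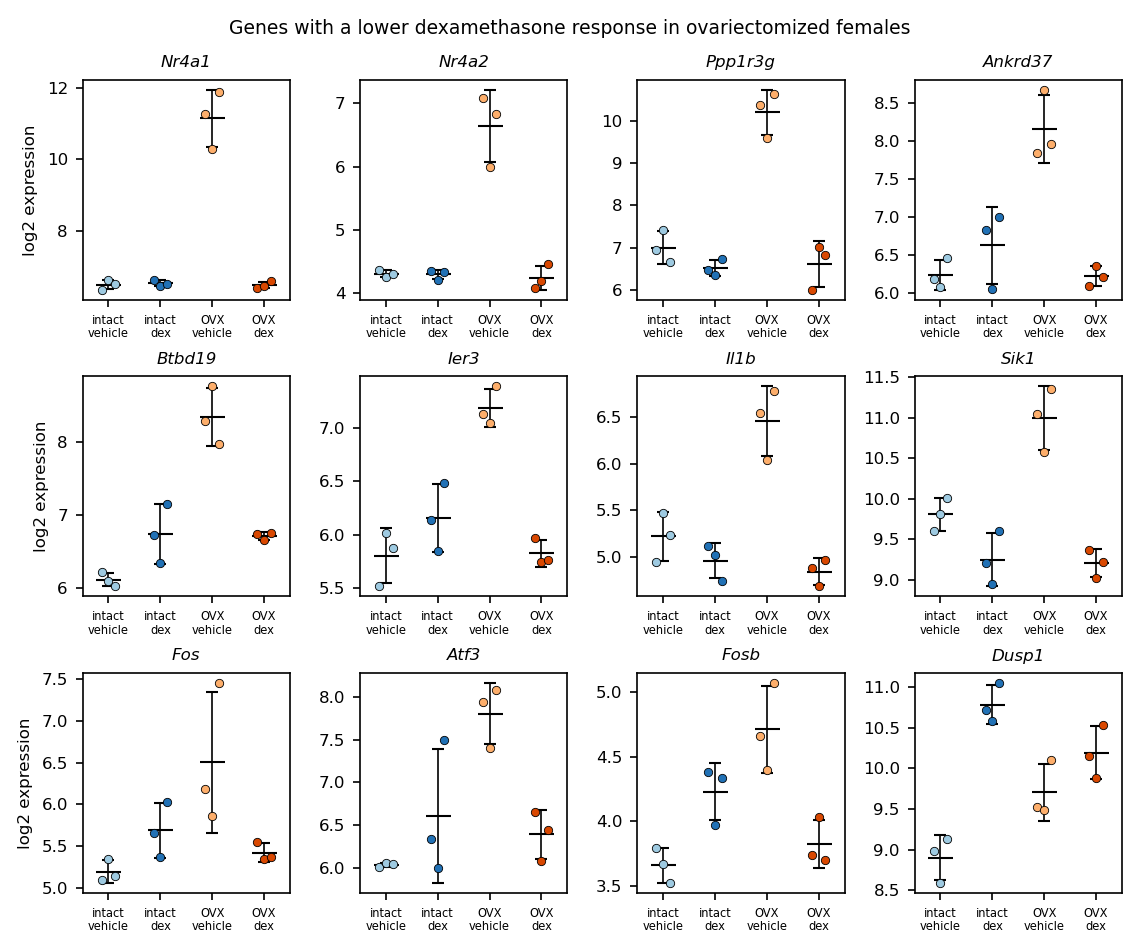
Deposited log2 level (y axis) in each library of 12 genes with negative differences, by group (x axis), with points for libraries, dashes for group means and bars for SD (n = 3; OVX, ovariectomized; dex, dexamethasone). The ovariectomized vehicle libraries of Nr4a1 lie at 10.30 to 11.87 and all other libraries at 6.36 to 6.64.

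Of 13 measured genes activated by CREB, a list that holds the NR4A receptors, 6 were lower (9.65% of all genes were) and 0 higher (15.3% of all genes were). Sik1, a kinase that restrains the coactivators of CREB, fell in both gonadal states and more so in ovariectomized females (-1.79 ± 0.20, adjusted p = 6.09e-05, against -0.56 ± 0.20, adjusted p = 0.0356 in intact females). The difference of Sik1 was -1.23 ± 0.28, adjusted p = 0.00926. Its ovariectomized vehicle libraries were at 11.05, 10.58 and 11.36, above the 9.60, 9.81 and 10.01 of intact vehicle. After dexamethasone the groups overlapped, at 9.21, 8.94 and 9.60 in intact and 9.37, 9.03 and 9.22 in ovariectomized females.

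Ppp1r3g (Entrez 76487), which targets protein phosphatase 1 to glycogen, followed the same pattern. It was at 10.38, 9.62 and 10.64 in ovariectomized vehicle libraries and between 5.99 and 7.42 in the other 9. Dexamethasone lowered it 12.2-fold in ovariectomized females (-3.61 ± 0.30, adjusted p = 8.57e-06), and it did not pass in intact females (-0.48 ± 0.30, adjusted p = 0.201). The difference of Ppp1r3g was -3.12 ± 0.42, adjusted p = 0.000813. Ankrd37, an ankyrin repeat protein induced in hypoxia, was at 7.84, 8.67 and 7.97 in ovariectomized vehicle and at most 7.01 elsewhere (difference -2.33 ± 0.35, adjusted p = 0.00128). Btbd19 was at 8.30, 8.77 and 7.98 there and at most 7.15 elsewhere (difference -2.26 ± 0.29, adjusted p = 0.000624), and its responses went in opposite directions (0.62 ± 0.20, adjusted p = 0.0237 in intact and -1.63 ± 0.20, adjusted p = 0.000132 in ovariectomized females). Nupr1, a chromatin-associated stress protein, was at 7.14, 7.67 and 6.25 in ovariectomized vehicle, with replicate 3 below the 6.57 of intact dexamethasone replicate 3. The difference of Nupr1 was -1.61 ± 0.40, adjusted p = 0.0136.

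Genes that restrain MAP kinase signalling were lower more often than higher: 7 of 17 measured members had a negative difference (9.65% of all genes did) and 2 a positive one (15.3% of all genes did). The count of lower members was 4 to 8 over the alternatives. Dusp1, a phosphatase that inactivates MAP kinases and a direct target of the glucocorticoid receptor, was at 8.98, 8.59 and 9.13 in intact vehicle and 10.71, 10.59 and 11.05 in intact dexamethasone libraries. The ovariectomized libraries were at 9.52, 9.48 and 10.10 with vehicle and 10.16, 9.89 and 10.54 with dexamethasone, and these overlapped. Dusp1 rose in intact females (1.88 ± 0.21, adjusted p = 3.59e-05), and the rise in ovariectomized females did not pass (0.49 ± 0.21, adjusted p = 0.0766). The difference of Dusp1 was -1.39 ± 0.29, adjusted p = 0.00616. Dusp8, of the same family, was lowest in intact vehicle (4.66, 4.65 and 4.77). For Dusp8 the difference of -1.15 ± 0.33, adjusted p = 0.025 lost its call in some fits (adjusted p = 0.0535 to 0.0543 with any 1 of intact vehicle replicate 1 or ovariectomized vehicle replicate 1 left out, and 0.0518 with quantile normalization).

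Krüppel-like factors moved both ways, with 3 higher and 3 lower of 12, against 15.3% higher and 9.65% lower over all genes. Klf10, induced early by TGF-beta, was 11.06, 10.73 and 11.10 in ovariectomized vehicle and 9.66, 10.37 and 10.06 in ovariectomized dexamethasone, and it fell there (-0.93 ± 0.26, adjusted p = 0.0132). In intact females the change was 0.62 ± 0.26, adjusted p = 0.0667. The difference of Klf10 was -1.55 ± 0.36, adjusted p = 0.011. Klf9, a glucocorticoid-induced repressor, rose in ovariectomized females (0.86 ± 0.14, adjusted p = 0.00069; 10.17, 10.15 and 10.17 to 10.92, 11.08 and 11.06) and changed by -0.11 ± 0.14, adjusted p = 0.547 in intact females, where replicate 1 of vehicle was at 11 and the others at 10.33 and 10.38. Its difference was 0.97 ± 0.20, adjusted p = 0.0057.

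Il1b, Il1a and Socs3 had their highest mean levels in ovariectomized vehicle livers. Il1b, an inflammatory cytokine, was at 6.54, 6.04 and 6.78 there and at most 5.48 elsewhere, and it fell with dexamethasone in ovariectomized females (-1.61 ± 0.19, adjusted p = 9.06e-05) for a difference of -1.35 ± 0.26, adjusted p = 0.00454. Il1a was at 7.88, 7.61 and 8 in ovariectomized vehicle and 6.74, 6.76 and 6.69 after dexamethasone, with a difference of -0.99 ± 0.15, adjusted p = 0.00124 and a response of -0.11 ± 0.10, adjusted p = 0.393 in intact females. Socs3, an inhibitor of cytokine signalling through STAT3, was at 8.35, 8.57 and 8.39 against 7.59, 7.96 and 7.68 in intact vehicle. The difference of Socs3 was -0.97 ± 0.15, adjusted p = 0.00146. Of 20 measured cytokine, chemokine and NF-kappaB feedback genes, a list that holds Il1b and Il1a, 5 had a lower response in ovariectomized females (9.65% of all genes did) and 1 a higher one (15.3% of all genes did), with 4 to 8 lower over the alternatives. Between the vehicle groups 3 of the 20 were higher after ovariectomy and 4 lower (median -0.03), against 12.4% higher and 15.5% lower over all genes.

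Among the largest positive differences were those of genes that dexamethasone lowered in intact females from a high vehicle level. Abhd2 (Entrez 54608), a lipid hydrolase, was at 10.61, 10.78 and 10.93 in intact vehicle and between 8.64 and 9.77 in all other libraries. It fell 3.57-fold in intact females (-1.84 ± 0.16, adjusted p = 9.52e-06), did not pass in ovariectomized females (0.18 ± 0.16, adjusted p = 0.407), and had a difference of 2.02 ± 0.23, adjusted p = 0.000371. Rnf125, an E3 ubiquitin ligase that acts in innate antiviral signalling, went from 9.32, 9.52 and 9.37 to 7.88, 7.76 and 7.30 in intact females, while ovariectomized libraries were at 8.21, 8.12 and 8.30 with vehicle and 7.75, 8.64 and 8.33 with dexamethasone. Its difference was 1.78 ± 0.28, adjusted p = 0.00146, and 13% of the 50-base words of its transcripts also occur in another gene. Sntb1, a syntrophin of the dystrophin complex, was at 9.06, 8.84 and 9.15 in intact vehicle and at most 8.13 elsewhere (difference 1.52 ± 0.15, adjusted p = 0.0002). Rassf8 was at 7.71, 7.30 and 7.65 in intact vehicle and at most 6.66 elsewhere (difference 1.47 ± 0.18, adjusted p = 0.000598). Pdpr, the regulatory subunit of pyruvate dehydrogenase phosphatase, fell in intact females from 7.21 ± 0.35 to 5.89 ± 0.11 (mean ± SD, n = 3). The difference of Pdpr was 1.63 ± 0.22, adjusted p = 0.000824.

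**Figure D4:**
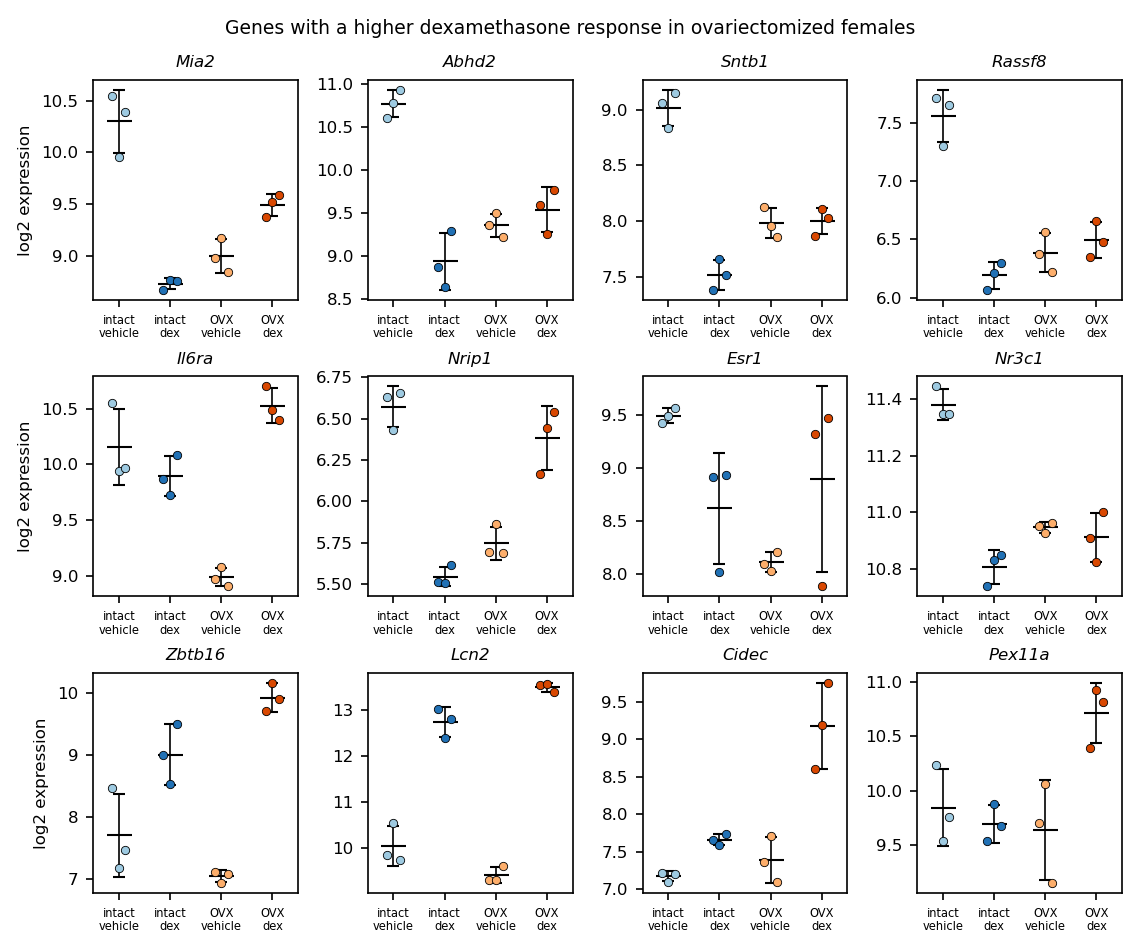
Deposited log2 level (y axis) in each library of 12 genes with positive differences, by group (x axis), with points for libraries, dashes for group means and bars for SD (n = 3; OVX, ovariectomized; dex, dexamethasone). Abhd2 lies at 10.61 to 10.93 in intact vehicle and at 8.64 to 9.77 in the other groups.

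For other genes intact vehicle was the lowest group. Gapdh, a glycolytic enzyme often taken as a reference transcript, was at 8.69, 8.69 and 8.73 in intact vehicle and between 9.37 and 10.19 in the other 9 libraries. Its difference was -0.83 ± 0.17, adjusted p = 0.00526, and 24.7% of its 50-base words occur in another gene. Ndufa2, a subunit of respiratory complex I, was at 11.35, 11.60 and 11.43 in intact vehicle and at least 11.79 elsewhere. Its difference of -0.46 ± 0.098, adjusted p = 0.0068 became -0.25 when the dependence of each library on transcript length and GC content was removed.

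Genes that fell in intact females and rose in ovariectomized females after dexamethasone included Mia2 (Entrez 338320), which helps load cargo for secretion from the endoplasmic reticulum. It went from 10.54, 9.96 and 10.40 to 8.67, 8.76 and 8.75 in intact females (-1.57 ± 0.13, adjusted p = 6.69e-06) and from 8.98, 9.17 and 8.84 to 9.37, 9.52 and 9.58 in ovariectomized females (0.49 ± 0.13, adjusted p = 0.0105). The 4 groups ended with intact vehicle highest. The difference of Mia2 was 2.06 ± 0.18, adjusted p = 0.000155. Megf9 had responses of -0.58 ± 0.19, adjusted p = 0.0249 and 0.99 ± 0.19, adjusted p = 0.00178. The difference of Megf9 was 1.57 ± 0.27, adjusted p = 0.00234. Prox1, a homeobox factor of hepatocyte identity, went from 10.64, 10.28 and 10.77 to 9.83, 9.72 and 9.61 in intact and from 10.16, 9.91 and 10.17 to 10.45, 10.62 and 10.47 in ovariectomized females (difference 1.28 ± 0.17, adjusted p = 0.000665). Srebf2, which encodes the transcription factor that raises cholesterol synthesis genes, changed by -0.42 ± 0.08 and 0.40 ± 0.08 (difference 0.82 ± 0.11, adjusted p = 0.00087). Of 23 measured cholesterol synthesis genes, 2 had a higher response in ovariectomized females (15.3% of all genes did) and 0 a lower one (9.65% of all genes did).

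Nrip1, Nr3c1 and Esr1 bear on the hormones of the design. Nrip1, a corepressor of oestrogen receptor and other nuclear receptors, was at 6.63, 6.43 and 6.66 in intact vehicle and 5.52, 5.51 and 5.62 in intact dexamethasone libraries. In ovariectomized females it rose from 5.69, 5.86 and 5.69 to 6.17, 6.44 and 6.54, so the order of the treatments was opposite in the 2 gonadal states without overlap in either. Its difference was 1.66 ± 0.15, adjusted p = 0.000158. Nr3c1, the glucocorticoid receptor gene, was at 11.44, 11.35 and 11.35 in intact vehicle and between 10.74 and 11 in the other 9 libraries. It fell in intact females (-0.57 ± 0.054, adjusted p = 1.44e-05) and did not pass in ovariectomized females (-0.03 ± 0.054, adjusted p = 0.636). For Nr3c1 the difference of 0.54 ± 0.077, adjusted p = 0.00101 was 0.34 with the length and GC trend removed. Esr1, which encodes oestrogen receptor alpha, was at 9.43, 9.49 and 9.57 in intact vehicle and 8.09, 8.03 and 8.21 in ovariectomized vehicle libraries. After dexamethasone it was 8.91, 8.01 and 8.93 in intact and 9.33, 7.88 and 9.47 in ovariectomized females, so 1 library of the latter lay more than 1 log2 unit below its replicates. Neither response passed. For Esr1 the difference of 1.66 ± 0.49, adjusted p = 0.0301 was lost in many fits (adjusted p = 0.0502 to 0.0701 with any 1 of intact vehicle replicates 1 and 3, intact dexamethasone replicate 2, ovariectomized vehicle replicates 1, 2 and 3 or ovariectomized dexamethasone replicates 1 and 3 left out, and 0.0507 with a robust prior, 0.0598 with the length and GC trend removed).

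Of 25 measured targets of the glucocorticoid receptor, 15 rose in intact females (22.8% of all genes did) and 16 in ovariectomized females (21.3% of all genes did). The response was higher after ovariectomy for 4 (8 without intact dexamethasone replicate 3) and lower for 1, and the median difference was 0.33. This share called, 20.0%, was near the 24.9% over all genes. Zbtb16, a transcription factor strongly induced by glucocorticoids, went from 8.47, 7.17 and 7.47 to 9, 8.53 and 9.50 in intact and from 7.11, 6.93 and 7.09 to 9.71, 10.17 and 9.92 in ovariectomized females. Its rise was larger after ovariectomy (2.89 ± 0.30 against 1.31 ± 0.30, difference 1.58 ± 0.42, adjusted p = 0.0189), and intact vehicle replicate 1 lay above its replicates. Fkbp5, a cochaperone that restrains the glucocorticoid receptor, rose by 1.28 ± 0.22 and 2.29 ± 0.22. For Fkbp5 the difference of 1.01 ± 0.31, adjusted p = 0.0332 was not kept throughout (adjusted p = 0.0535 to 0.074 with any 1 of intact vehicle replicates 1 and 2, intact dexamethasone replicates 1 and 2, ovariectomized vehicle replicate 3 or ovariectomized dexamethasone replicates 1 and 3 left out, and 0.105 with quantile normalization). Tsc22d3, which encodes the anti-inflammatory protein GILZ, rose by 0.59 ± 0.15 in intact and 1.13 ± 0.15 in ovariectomized females, and the difference did not pass (0.54 ± 0.21, adjusted p = 0.0817), though it did without intact dexamethasone replicate 3 (adjusted p = 0.015). For the clock gene Per1 the difference was -0.28 ± 0.23, adjusted p = 0.387.

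Acute phase proteins, which the liver secretes in inflammation under IL-6 and glucocorticoids, had 11 of 27 members with a higher response in ovariectomized females and 0 with a lower one. Over all genes 15.3% were higher and 9.65% lower. The median difference of the list was 0.62, with 4 to 17 members higher over the alternatives. In ovariectomized vehicle livers 12 of the 27 were lower than in intact vehicle livers (15.5% of all genes were) and 0 higher (1 at an unadjusted p under 0.05). Under dexamethasone 2 were higher (7.74% of all genes were) and 0 lower (2 at an unadjusted p under 0.05). Lcn2, an acute phase protein that binds bacterial siderophores, went from 9.85, 10.54 and 9.75 to 13.01, 12.38 and 12.79 in intact and from 9.32, 9.32 and 9.61 to 13.53, 13.55 and 13.38 in ovariectomized females. The response was 4.06 ± 0.20 after ovariectomy and 2.68 ± 0.20 in intact females, a difference of 1.38 ± 0.28, adjusted p = 0.00498. Il6ra, the receptor through which hepatocytes sense IL-6, was lowest in ovariectomized vehicle (8.97, 9.07 and 8.91) and rose there to 10.70, 10.49 and 10.39, while intact libraries were at 10.55, 9.94 and 9.97 and 9.87, 9.73 and 10.08. Its difference was 1.80 ± 0.21, adjusted p = 0.000396. Mug1, a murinoglobulin protease inhibitor of plasma, was at 14.56, 14.47 and 14.33 in ovariectomized vehicle and at least 15.05 elsewhere (difference 0.96 ± 0.15, adjusted p = 0.00136; 26.5% of its 50-base words occur in another gene). Saa1, serum amyloid A, had a difference of 1.15 ± 0.34, adjusted p = 0.0297, which was lost in several fits (adjusted p = 0.0549 to 0.0712 with any 1 of intact vehicle replicate 2, intact dexamethasone replicate 2, ovariectomized vehicle replicates 1 and 2 or ovariectomized dexamethasone replicate 1 left out, and 0.085 with quantile normalization), and 31.5% of its words are shared.

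Interferon response genes were lowered by dexamethasone in both states. This held for 26 of 32 in intact females, against 25.9% of all genes, and for 28 in ovariectomized females, against 19.4%. After ovariectomy 4 had a higher and 4 a lower response (1 to 6 and 1 to 9 over the alternatives). The lower count was 1 without ovariectomized dexamethasone replicate 3. Over all genes 15.3% were higher and 9.65% lower. The share of the list called was near the 24.9% over all genes.

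Of 30 measured fatty acid oxidation genes and PPARalpha targets, 12 had a higher response in ovariectomized females and 0 a lower one (median difference 0.41; 7 to 20 higher over the alternatives), and of 19 triglyceride and lipid droplet genes 6 were higher and 1 lower. Of 15 fatty acid synthesis genes 1 was higher and 0 lower (3 higher without intact vehicle replicate 2). Over all genes 15.3% were higher and 9.65% lower. Pex11a, which acts in peroxisome division, was at 10.40, 10.92 and 10.82 in ovariectomized dexamethasone libraries and at most 10.23 elsewhere. The difference of Pex11a was 1.22 ± 0.32, adjusted p = 0.0183. Cidec, which fuses lipid droplets, was at 8.60, 9.19 and 9.75 in the same libraries and at most 7.74 elsewhere. It rose 3.46-fold in ovariectomized females (1.79 ± 0.23, adjusted p = 0.000144), and the rise in intact females did not pass (0.49 ± 0.23, adjusted p = 0.0966). The difference of Cidec was 1.31 ± 0.32, adjusted p = 0.0132. These genes were set apart by ovariectomized dexamethasone. Gpam, the mitochondrial enzyme that starts triglyceride synthesis, fell in intact females from 11.48, 10.66 and 11.38 to 9.47, 9.68 and 9.49 and lay between 9.87 and 10.39 in ovariectomized libraries (difference 1.62 ± 0.27, adjusted p = 0.002). Acot4, a peroxisomal thioesterase, fell in both states (-1.78 ± 0.13 in intact and -0.87 ± 0.13 in ovariectomized females), with a difference of 0.92 ± 0.19, adjusted p = 0.006. Fads2, a fatty acid desaturase, fell in intact females (-1.22 ± 0.17, adjusted p = 0.00014) and not by the test in ovariectomized females (-0.13 ± 0.17, adjusted p = 0.564), with a difference of 1.09 ± 0.23, adjusted p = 0.00697.

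**Figure D5:**
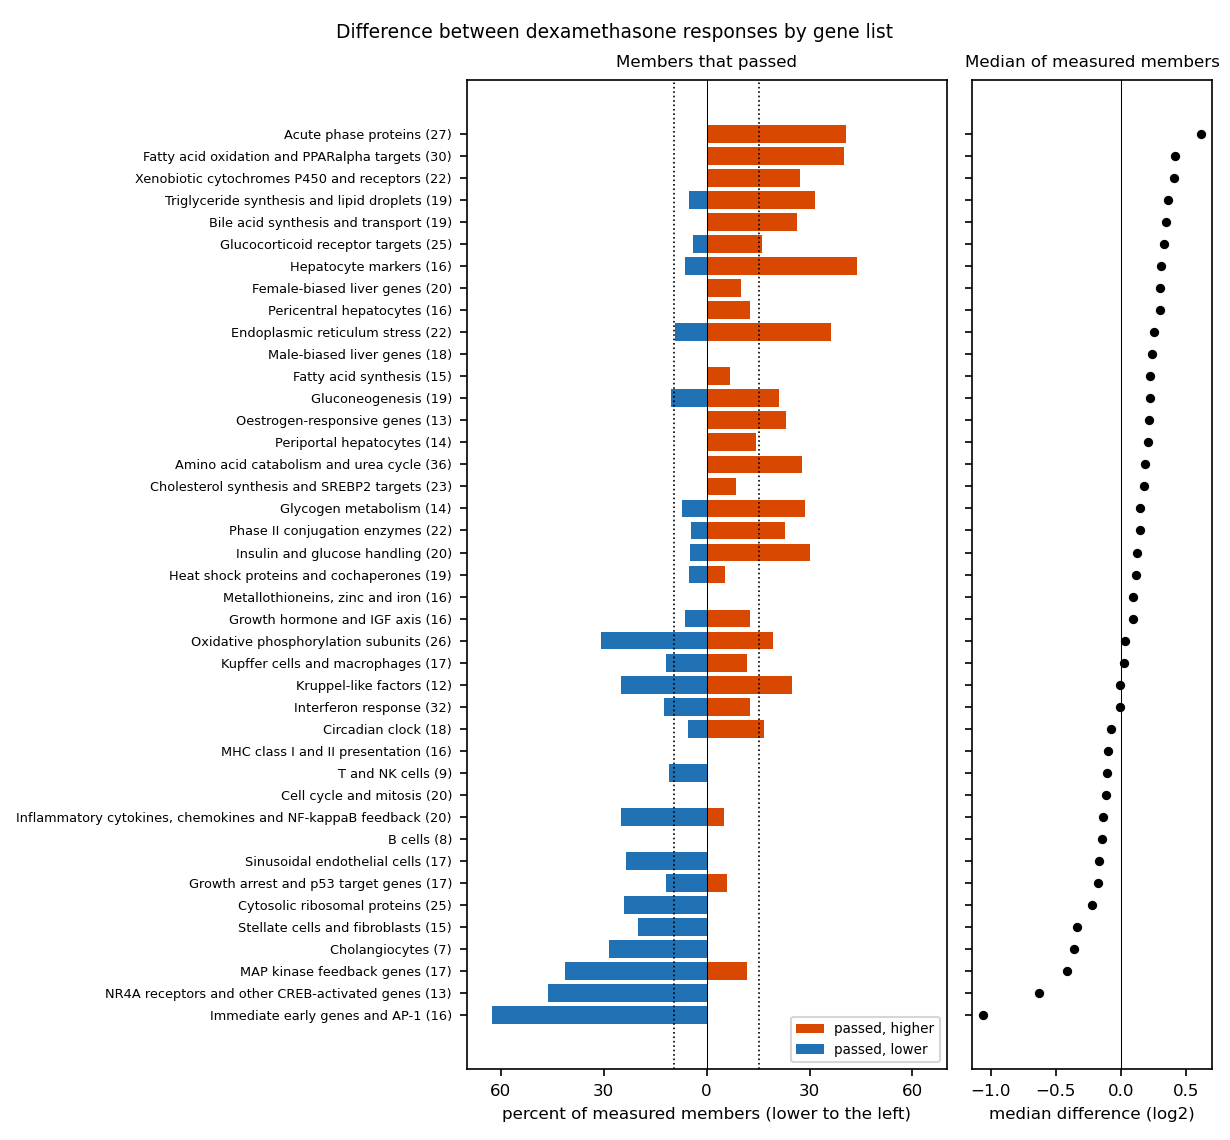
Left, percent of the measured members of gene lists (rows, with the number measured) whose difference between responses passed, higher to the right and lower to the left, with dotted lines at the shares over all genes (15.3% and 9.65%). Right, median difference of the same lists (log2): the immediate early list has a median of -1.06 and the acute phase list one of 0.62. The neutrophil list (3 measured) and a list of erythroid, pancreas and fat markers (2 measured) are not shown.

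Of 36 measured genes of amino acid catabolism and the urea cycle, 10 had a higher response in ovariectomized females and 0 a lower one, with a median difference of 0.18 and 4 to 16 higher over the alternatives. The share called, 27.8%, was near the 24.9% over all genes, of which 15.3% were higher and 9.65% lower. Cps1, the first enzyme of the urea cycle, went from 16.26, 16.24 and 16.60 to 17.81, 17.73 and 17.68 in ovariectomized and from 17.14, 16.91 and 16.90 to 17.23, 17.29 and 17.44 in intact females. The difference was 1.04 ± 0.17, adjusted p = 0.00192, and 0.69 after quantile normalization. Aass, which starts lysine breakdown, rose by 1.68 ± 0.11 in ovariectomized and 0.80 ± 0.11 in intact females (difference 0.87 ± 0.16, adjusted p = 0.00328). Urad, an enzyme of urate degradation, was at 8.67, 8.63 and 9.21 in ovariectomized vehicle and between 9.89 and 10.20 elsewhere, with 10.13, 10.09 and 10.01 in ovariectomized dexamethasone (difference 1.22 ± 0.18, adjusted p = 0.00124).

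Glucose genes gave mixed counts, read against 15.3% higher and 9.65% lower over all genes. Of 19 gluconeogenesis genes 4 were higher and 2 lower, and of 20 genes of insulin signalling and glucose handling 6 were higher and 1 lower. The higher count of the first was 2 without intact dexamethasone replicate 1 or ovariectomized dexamethasone replicate 3, and that of the second was 3 without replicate 1 or 3 of intact vehicle, ovariectomized vehicle or ovariectomized dexamethasone, or replicate 1 or 2 of intact dexamethasone. Foxo3, a factor restrained by insulin, fell in intact females from 8.68, 8.36 and 8.65 to 7.64, 7.51 and 7.89 and was 7.94, 7.86 and 8.17 and 8.06, 7.98 and 7.87 in ovariectomized vehicle and dexamethasone libraries (difference 0.86 ± 0.17, adjusted p = 0.00448). G6pc, the glucose-6-phosphatase that releases glucose, was at 13, 12.32 and 13.38 in intact vehicle and 14.08, 13.79 and 14.05 in ovariectomized vehicle. For G6pc the difference of -0.92 ± 0.29, adjusted p = 0.0368 was lost in many fits (adjusted p = 0.0569 to 0.0829 with any 1 of intact vehicle replicate 1, intact dexamethasone replicates 1 and 2, ovariectomized vehicle replicates 1 and 3 or ovariectomized dexamethasone replicates 1 and 3 left out, and 0.0536 with no filter).

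Of the drug and bile acid lists, 6 of 22 cytochrome P450 and receptor genes were higher and 0 lower, 5 of 19 bile acid genes were higher and 0 lower, and 5 of 22 conjugation enzymes were higher and 1 lower. The shares called, 27.3%, 26.3% and 27.3%, were near the 24.9% over all genes. Ugt1a1, which conjugates bilirubin, was at 13.18, 13.16 and 13.15 in intact vehicle and 11.43, 11.69 and 11.34 after dexamethasone, while ovariectomized libraries were at 12.37, 12.52 and 12.29 and 12.16, 12.27 and 12.09. Its difference was 1.46 ± 0.12, adjusted p = 0.000148. For Ugt1a1 58.2% of the 50-base words also occur in another gene, so reads of those parts may not be assignable to 1 gene. Por, the reductase that supplies electrons to P450 enzymes, was lowest in ovariectomized vehicle (14.10, 14.30 and 14.27) and rose there to 14.97, 14.91 and 14.86 (difference 0.82 ± 0.14, adjusted p = 0.00218, 0.46 after quantile normalization). Nr5a2, a nuclear receptor that raises bile acid synthesis genes, was at 10.36, 10.15 and 10.27 in intact vehicle and at most 9.90 elsewhere (difference 0.73 ± 0.13, adjusted p = 0.00249). Cyp7a1, which sets the rate of bile acid synthesis, rose in ovariectomized females (1.16 ± 0.18, adjusted p = 0.000516) and not by the test in intact females (0.20 ± 0.18, adjusted p = 0.391). For Cyp7a1 the difference of 0.97 ± 0.26, adjusted p = 0.0192 was lost in 2 settings (adjusted p = 0.0517 without intact dexamethasone replicate 1, and 0.093 with quantile normalization).

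Of 22 endoplasmic reticulum stress genes, 8 were higher and 2 lower, against 15.3% higher and 9.65% lower over all genes. The higher count was 4 without intact dexamethasone replicate 2 and 5 without replicate 1 or 3 of intact vehicle, ovariectomized vehicle or ovariectomized dexamethasone. Ern1, which encodes the stress sensor IRE1-alpha, fell in intact females from 9.76, 9.25 and 9.80 to 8.48, 8.51 and 8.33 and was 8.85, 9.05 and 8.70 and 8.61, 9.07 and 8.80 in ovariectomized females (difference 1.13 ± 0.21, adjusted p = 0.00377). Ddit3, the stress factor CHOP, was lowest in intact vehicle (7.94, 8.02 and 8.04) and rose in intact females to 8.55, 8.36 and 8.59 (difference -0.74 ± 0.14, adjusted p = 0.00347).

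Markers of other liver cells gave small counts, read against 9.65% lower and 15.3% higher over all genes. Of 15 stellate cell and fibroblast markers 3 were lower and 0 higher (median difference -0.33), and 9 were lower at an unadjusted p under 0.05. That count of 3 was 1 without intact vehicle replicate 1, ovariectomized vehicle replicate 1 or 3, or ovariectomized dexamethasone replicate 2 or 3, it was 6 without intact dexamethasone replicate 2 and 7 without ovariectomized vehicle replicate 2, and library weights gave 12. Of 17 sinusoidal endothelial markers 4 were lower and 0 higher (1 lower without intact dexamethasone replicate 1, ovariectomized vehicle replicate 1 or ovariectomized dexamethasone replicate 3, and 2 without replicate 2 or 3 of intact vehicle, ovariectomized vehicle replicate 3 or ovariectomized dexamethasone replicate 1), and of 7 cholangiocyte markers 2 were lower. Of 3 neutrophil markers 2 were lower, and 1 was without replicate 1 or 3 of intact vehicle or intact dexamethasone, ovariectomized vehicle replicate 3, or ovariectomized dexamethasone replicate 1 or 2. Of 17 Kupffer cell and macrophage markers 2 were higher and 2 lower (0 to 3 higher and 0 to 2 lower when 1 library was left out). Between the vehicle groups 9 of these 17 were lower after ovariectomy, against 15.5% of all genes. Of 9 T and NK cell markers 1 was lower and 0 higher, and of 8 B cell markers 0 passed in either direction (1 was lower without intact vehicle replicate 2). Dexamethasone lowered all 8 B cell markers in both gonadal states, against 25.9% of all genes in intact and 19.4% in ovariectomized females. The mean log2 level of the stellate list was 9.35 to 9.57 in intact dexamethasone libraries, above the 8.73 to 9.11 of intact vehicle, the 8.73 to 9.14 of ovariectomized vehicle and the 8.91 to 9.13 of ovariectomized dexamethasone. Pdgfrb, the PDGF receptor of stellate cells, was at 9.01, 8.94 and 8.80 in intact dexamethasone and at most 8.71 elsewhere (difference -0.70 ± 0.15, adjusted p = 0.00682), and Pcolce, which speeds collagen maturation, was at 8.75, 8.56 and 8.93 there and at most 8.47 elsewhere (difference -0.75 ± 0.18, adjusted p = 0.0119). Plagl1, an imprinted zinc finger factor, was also highest in intact dexamethasone (6.43, 6.25 and 6.49; difference -0.87 ± 0.17, adjusted p = 0.00442). The mean level of the 3 neutrophil markers was 5.52 to 6.09 in ovariectomized vehicle, 5.08 to 5.65 in intact vehicle, 5.07 to 5.33 in intact dexamethasone and 4.8 to 5.02 in ovariectomized dexamethasone libraries, so the group with high immediate early genes and Il1b also had the highest median of these markers (5.72), with overlap with intact vehicle. Csf3r, the G-CSF receptor of neutrophils, was at 6.88, 6.76 and 6.89 in ovariectomized vehicle and 6.07, 6.29 and 6.19 after dexamethasone (difference -0.71 ± 0.13, adjusted p = 0.00278; 10.5% of its words shared). Only 3 of 11 listed neutrophil markers reached the minimum mean level of 4, while 15 of 16 stellate markers did, and none of these 2 lists was at 0 in every library. The part of these cell types in the results was not tested.

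Hepatocyte markers were among the lists with many positive differences, 7 higher and 1 lower of 16, against 15.3% higher and 9.65% lower over all genes. Their mean level was 13.97 to 14.05 in ovariectomized dexamethasone libraries, above all other libraries (13.58 to 13.81). The part of this shift in the other results was not tested. Among factors of hepatocyte identity Onecut1 was at 8.39, 8.96 and 8.92 in ovariectomized dexamethasone libraries and at most 8.21 elsewhere. Its difference of 1.64 ± 0.47, adjusted p = 0.0255 was lost in several fits (adjusted p = 0.0556 to 0.0645 with any 1 of intact vehicle replicate 3, intact dexamethasone replicate 1, ovariectomized vehicle replicates 1 and 3 or ovariectomized dexamethasone replicates 2 and 3 left out), and 52.3% of its words occur in another gene.

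Of 25 measured ribosomal protein genes, 18 rose with dexamethasone in intact females (22.8% of all genes did) and 4 in ovariectomized females (21.3% of all genes did). After ovariectomy 6 had a lower response (9.65% of all genes did) and 0 a higher one (15.3% of all genes did). The lower count was 3 without ovariectomized dexamethasone replicate 3 and 13 without intact vehicle replicate 2. The share called, 24.0%, was near the 24.9% over all genes. Rplp1, a protein of the ribosomal stalk, went from 12.62, 12.69 and 12.51 to 13.06, 13.05 and 13.20 in intact females and was 12.86, 12.79 and 12.82 and 12.89, 12.91 and 12.78 in ovariectomized females. Its difference of -0.46 ± 0.089, adjusted p = 0.004 was -0.15 with the length and GC trend removed (adjusted p = 0.302), so the call was lost there, and 60% of its words are shared. Of 26 subunits of oxidative phosphorylation 5 were higher (15.3% of all genes were) and 8 lower (9.65% of all genes were). The lower count was 4 without intact vehicle replicate 3 or intact dexamethasone replicate 1, and 5 without intact dexamethasone replicate 2 or ovariectomized vehicle replicate 3. Among the higher ones was Sdha of complex II, which fell in intact females (-0.45 ± 0.052, adjusted p = 5.16e-05) for a difference of 0.50 ± 0.074, adjusted p = 0.00114 (0.31 after quantile normalization). Transcript length moved with the sign of the difference over all genes: the median length was 4492.5 bases for genes with a positive difference, 2410.5 for those with a negative one and 3342 over all tested. The rank correlation of the difference with length was 0.31, across genes that are not independent. For the separate contrasts it was -0.245 for dexamethasone in intact females, 0.0653 for dexamethasone in ovariectomized females, -0.374 between the vehicle groups and 0.0773 between the dexamethasone groups. With the length and GC trend removed, 1 of the 25 ribosomal protein genes was lower, and of the oxidative phosphorylation subunits 8 were higher and 2 lower.

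Lists linked to ovarian hormones gave counts close to the shares over all genes. Of 13 measured oestrogen-responsive genes 3 were higher and 0 lower, and of 20 female-biased liver genes 2 were higher and 0 lower, against 15.3% higher and 9.65% lower over all genes. Where 0 members of a list passed limma's adjusted test in 1 direction for the difference, 0 passed in that direction at an unadjusted p under 0.05 too, except 1 lower member of the amino acid and urea cycle list. That statement covers the lists of immediate early, CREB-activated, fatty acid oxidation, fatty acid synthesis, cholesterol, acute phase, bile acid, cytochrome P450, stellate, endothelial, neutrophil, T and NK cell, B cell, ribosomal, oestrogen-responsive and female-biased genes.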

How the data were processed

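Whole-liver RNA (Trizol, RNeasy) was sequenced on a NextSeq500 after Illumina TruSeq library preparation, per the labels' protocols. The submitters' processing notes name build mm9 and, with no versions, the tools Trim Galore, TopHat2, HTSeq, DESeq and DESeq2. The authors deposited 1 table of log2 expression values normalized between libraries, per the labels. The exact transformation is not given in the sources used here, depth cannot be recovered from it, and differences of low genes may be understated. The table held 24962 entries, of which 6294 were at 0 in every library. Of 24033 symbols (392 had several entries, represented by the most highly expressed), 12965 had a mean of at least 4 and were tested.

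A single limma 3.58.1 model (R 4.3.3) held all 4 groups (lmFit on group means, eBayes with a variance trend, 8 residual degrees of freedom), with Benjamini-Hochberg adjustment over all genes tested and a threshold of 0.05. Values after ± are SE of a fitted difference unless SD is named. The fit was tested on simulated data. The members of the lists, the lists themselves and the rule for named genes were chosen with earlier results of these data known. The rule took the 12 largest positive and 12 largest negative differences that passed (1 locus symbol was passed over), up to 2 members of each list, Nr3c1, Esr1, Fkbp5, Per1 and Tsc22d3, and up to 3 genes for each kind of difference and each group that stood apart. It took 108 genes, and those whose calls depended most on single libraries are mostly left out of the text; some others are not reported here. The alternatives changed the filter (none, or a minimum mean of 6), the low values (8 added on the linear scale), the scaling (recentring or quantile normalization), the prior variance (no trend, or robust), the weights of libraries, the threshold (an absolute log2 of at least 1), the entry per symbol (the mean), and the libraries (each left out in turn). Others added the replicate number as a block, or removed the dependence of each library on transcript length and GC content. Ranges of list counts given over the alternatives leave out the threshold of an absolute log2 of at least 1. Length, GC content and shared 50-base words came from GRCm38 transcripts (12425 genes, 95.8%, matched for length).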

Additional observations from a re-analysis of the deposited data

Results flagged for a closer look

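Each gene below is listed because limma's test of the difference between the dexamethasone responses of ovariectomized and intact females passed. Values are that difference on the log2 scale, with the error and adjusted p in the report. The response was higher in ovariectomized females for Mia2 (2.06), Abhd2 (2.02), Il6ra (1.80), Rnf125 (1.78), Esr1 (1.66), Nrip1 (1.66), Onecut1 (1.64), Pdpr (1.63), Gpam (1.62), Zbtb16 (1.58), Megf9 (1.57), Sntb1 (1.52), Rassf8 (1.47) and Ugt1a1 (1.46). Smaller positive differences were those of Lcn2 (1.38), Cidec (1.31), Prox1 (1.28), Urad (1.22), Pex11a (1.22), Saa1 (1.15), Ern1 (1.13), Fads2 (1.09), Cps1 (1.04), Fkbp5 (1.01), Cyp7a1 (0.97) and Klf9 (0.97). Positive differences were also found for Mug1 (0.96), Acot4 (0.92), Aass (0.87), Foxo3 (0.86), Por (0.82), Srebf2 (0.82), Nr5a2 (0.73), Nr3c1 (0.54) and Sdha (0.50). The response was lower in ovariectomized females for Nr4a1 (-4.69), Ppp1r3g (-3.12), Nr4a2 (-2.39), Ankrd37 (-2.33), Btbd19 (-2.26), Atf3 (-1.98), Ier3 (-1.72), Nupr1 (-1.61), Fos (-1.58), Klf10 (-1.55), Fosb (-1.45), Dusp1 (-1.39), Il1b (-1.35) and Sik1 (-1.23). Smaller negative differences were those of Dusp8 (-1.15), Il1a (-0.99), Socs3 (-0.97), G6pc (-0.92), Plagl1 (-0.87), Gapdh (-0.83), Pcolce (-0.75), Ddit3 (-0.74), Csf3r (-0.71), Pdgfrb (-0.70), Ndufa2 (-0.46) and Rplp1 (-0.46). Of these 61 genes, 53 passed in all 12 fits with 1 library left out. Genes whose calls depended most on single libraries had mostly been left out of the text. This share is therefore raised by that choice and does not measure the stability of the other calls.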

How the results depend on the processing

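No gene named by the rule changed direction under any alternative. Library weights raised the count of genes with a difference between responses to 6659 (3651 higher, 3008 lower), that between vehicle groups to 5919, that between dexamethasone groups to 5777 and that of genes called in intact females alone to 2490. A minimum absolute log2 of 1 left 165 differences (112 higher, 53 lower), 313 responses in intact and 359 in ovariectomized females, 66 genes between the vehicle groups, 40 between the dexamethasone groups, 55 with a response in intact females alone and 15 with intact vehicle apart. Quantile normalization gave 768 genes between the dexamethasone groups, and removing the length and GC trend gave 245 genes with intact vehicle apart and 2535 differences. Leaving out 1 library gave 2174 to 3520 differences, 741 to 1404 lower, 1433 to 2116 higher, 5214 to 6290 responses in intact and 3982 to 5623 in ovariectomized females, 2215 to 3989 genes between vehicle groups, 207 to 1852 between dexamethasone groups, 285 to 575 with intact vehicle apart, 1023 to 1625 with a response in intact females alone and 8 to 12 lower immediate early genes. With the replicate number as a replicate block 3118 differences passed, 2899 of them among the 3234. Same-numbered libraries correlated at -0.231 to 0.396 (18 pairs, median 0.0246) and a library correlated best with its own number in 13 of 36 checks, so the numbers were not taken to pair the libraries. Precision is limited by 3 libraries per group and by values that no longer hold read depth. The cause of these changes was not tested. The alternatives of the counts with intact vehicle apart, with a response in intact females alone and of lower immediate early genes were chosen after seeing the data.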
